A study of Mus musculus with 4 samples.

Results

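The immediate-early genes described here, which encode the transcription factors Egr1, Egr2, Egr3, Klf2, Klf4, Klf6 and Nr4a1, the nuclear protein Ier2, the antiproliferative protein Btg2 and the RNA-binding protein Zfp36 (tristetraprolin), were followed in NIH3T3 cells that differed in their EGFR. Every probe whose gene name on the array is one of these 10 symbols was taken. That gave 10 probes of 55681 non-control probes, 1 for each gene, and each was printed as 1 spot per array. They are 10 of 34821 gene names and unnamed probes, of which 18093 passed the background filter, 9 of the 10 among them. NIH3T3 is an immortalised line of mouse embryonic fibroblasts. One group of 2 arrays came from NIH3T3 cells expressing wild-type EGFR and the other group of 2 arrays from NIH3T3 cells expressing a deletion mutant of EGFR. The labels call the measurement one at steady state and list no treatment. Which part of EGFR is deleted, from which species the receptor came, how it was introduced and whether a group was 1 clone are not stated in the labels. Nor do they say whether replicates were separate cultures, so p-values here reflect spread among these arrays alone, and that spread may be technical.

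Immediate-early genes are transcribed within minutes of a growth factor signal without new protein synthesis. The factors that switch them on are already present in the cell and are activated by phosphorylation. EGFR is the receptor tyrosine kinase for epidermal growth factor, and ERK downstream of it phosphorylates ternary complex factors such as Elk1. These sit with serum response factor (SRF) on a DNA element called the CArG box in the promoters of many of these genes. Other inputs reach the same genes through CREB on the cyclic AMP response element and through MEF2 factors, which ERK5 activates. Most of the transcripts are short-lived, and their products either pass the signal on to further genes, as the EGR and KLF zinc finger proteins do, or bring it to an end, as Zfp36 does by marking AU-rich messenger RNAs for decay.

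The promoters of Klf4, which rose most, of Klf2 and Btg2, which fell, and of Zfp36, the dimmest tested gene, are shown for comparison of their sites. RefSeq windows (GRCm38.p6) were found for 7 of the 10 genes, and the 250 bases before the annotated start were read on the gene's own strand. No window was found for Egr1, Egr3 and Ier2, so their promoters were not searched for any of these sites. Capitals mark the CArG box, the MEF2 site, the cyclic AMP response element TGACGTCA and the EGR site GCGNGGGCG, each on either strand.
Klf4 (chr4:55532476-55532725, minus strand): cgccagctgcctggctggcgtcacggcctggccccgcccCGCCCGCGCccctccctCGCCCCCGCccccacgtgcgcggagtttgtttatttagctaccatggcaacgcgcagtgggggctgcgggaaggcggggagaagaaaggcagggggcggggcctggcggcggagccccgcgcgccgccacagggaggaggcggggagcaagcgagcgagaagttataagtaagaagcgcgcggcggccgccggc
Klf2 (chr8:72318812-72319061, plus strand): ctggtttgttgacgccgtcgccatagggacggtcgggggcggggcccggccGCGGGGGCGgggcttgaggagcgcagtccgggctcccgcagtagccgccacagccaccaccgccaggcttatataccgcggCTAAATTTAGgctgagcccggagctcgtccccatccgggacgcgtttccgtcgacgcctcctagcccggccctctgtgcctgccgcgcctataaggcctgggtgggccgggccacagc
Btg2 (chr1:134079156-134079405, minus strand): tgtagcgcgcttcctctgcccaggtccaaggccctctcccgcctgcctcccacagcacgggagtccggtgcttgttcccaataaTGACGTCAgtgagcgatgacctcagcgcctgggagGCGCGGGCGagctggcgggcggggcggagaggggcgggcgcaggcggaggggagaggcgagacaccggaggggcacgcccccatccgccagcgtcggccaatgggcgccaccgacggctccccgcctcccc
Zfp36 (chr7:28379229-28379478, minus strand): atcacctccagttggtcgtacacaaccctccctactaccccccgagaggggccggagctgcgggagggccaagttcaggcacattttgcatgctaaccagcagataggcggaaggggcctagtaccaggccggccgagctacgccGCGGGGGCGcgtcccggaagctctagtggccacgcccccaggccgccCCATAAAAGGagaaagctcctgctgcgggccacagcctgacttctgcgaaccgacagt

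Klf2 was the only gene of the 7 whose window held a MEF2 site, CTAAATTTAG, which begins 118 bases before the start. Such a site stood in 2.92% of the 32851 windows of the same length. Btg2 alone held TGACGTCA, found in 1.55% of windows, and its site begins 166 bases before the start. A CArG box was found in 1.47% of all windows. In Zfp36 it reads CCATAAAAGG and begins 58 bases before the start. A CArG box also stands in 4 of the 5 Egr2 windows, as CCATATATGG in 3 of them and CCTTTTTTGG in the other. Those 3 windows overlap, and their CCATATATGG is the same genomic site. GCGNGGGCG, in 4.70% of windows, was present in Klf2, Klf4, Nr4a1, Btg2 and Zfp36, with 2 sites in Klf4. The windows of Klf2, Klf4, Klf6, Nr4a1, Btg2 and Zfp36 were 64.8% to 74.4% G or C. Those of Egr2 were 54.0% to 71.2%, against a median of 52.4% over all windows. The part of base composition in these matches was not tested. The motif GGGCGG, which overlaps GCGNGGGCG in Klf2, Klf4 and Nr4a1 and shares 1 base with the CArG box of Zfp36, was not put in capitals. It stood in 32.7% of windows and in at least 1 window of each of the 7 genes, though not in every Egr2 window. TGANTCA, the AP-1 motif, stood in 6.75% of windows and in none of the windows of these genes. A match is a string of letters and was not tested as a binding site.

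Across the whole table, 18093 features (gene names, each represented by its brightest probe that passed the background filter, or unnamed probes) were tested. Per array, the share of probes called well above background was 42.9% to 46.9%, and no spot was saturated. Of 10 fibroblast markers, 9 were well above background on all 4 arrays and Fap on none. Of these 9, 6 fell, Vim rose and 2 did not pass. That is 77.8% called, against 58.8% of all features (34.6% higher, 24.2% lower). The sum of the scaled signals of the fibroblast markers was 1700 and 1750 in wild-type and 1270 and 1310 in deletion-mutant arrays. No epithelial marker was above background on all 4 arrays, but Krt8 was on both deletion-mutant arrays, and the epithelial sum was 0.131 to 0.168 in wild-type and 0.337 to 0.415 in deletion-mutant cells. Of 6 leukocyte markers, Ptprc and Emr1 were at background on all 4 arrays, while Cd68, Cd3e and Itgam were well above it on all 4. Cd79a was well above it on both wild-type arrays and on neither deletion-mutant array, and did not pass (limma adjusted p = 0.109). Itgam fell by 0.92 (log2, limma adjusted p = 0.00109), whereas Cd68 and Cd3e each had -0.10 (adjusted p = 0.359 and 0.226). The sum was 35.2 to 37.7 in wild-type and 20.1 to 20.3 in deletion-mutant cells. Most of it was the signal of Itgam, which stood at 5.05 and 5.15 (scaled log2) in wild-type and 4.18 on both deletion-mutant arrays. Of 5 endothelial markers, Cdh5, Tek and Tie1 were at background, Pecam1 fell by 0.40 (log2, limma adjusted p = 0.0111) and Kdr had -0.03 (adjusted p = 0.756), and the sum was 6.56 to 7.13 against 6.58 to 6.73. All 5 skeletal muscle markers were at background. The part of these shifts in the results was not tested. Mouse Egfr itself was at least 11.5-fold lower in deletion-mutant cells by its brightest probe (limma adjusted p = 0.000146), which does not check the labels, because the species of the introduced receptor is not given.

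The comparison asked whether the steady-state levels of these genes depend on which EGFR the cells express. Klf4, Ier2, Egr1 and Nr4a1 were higher in deletion-mutant cells, Klf2 and Btg2 were lower, Egr2, Klf6 and Zfp36 did not pass the test, and Egr3 was too dim to be tested. Thus 6 of the 9 tested genes passed an adjusted p of 0.05 (limma, adjusted over all features), which is 66.7% against a background of 58.8% of all features, so that the count alone does not set these genes apart. The 4 higher genes compare with 34.6% of all features that were higher, and the 2 lower genes with 24.2% that were lower. A change of at least 2-fold that also passed was found for Klf4, Ier2, Klf2 and Btg2, or 44.4% of the tested genes, where the background was 13.4%. That is 2 higher genes, beside 5.94% of all features, and 2 lower genes, beside 7.46%. Which genes reached 2-fold depended on the setting. With each array scaled to its median, Btg2 was 1.91-fold lower and Egr1 2.2-fold higher. With normexp background correction, Btg2 was 1.55-fold lower and Ier2 1.93-fold higher. The arrays of the groups did not overlap for 8 of the 9 genes (88.9%) against 81.7% of all features, with 6 genes higher (46.4% of features) and 2 lower (35.3%). The median log2 fold change was 0.14 over the 9 genes and 0.07 over all features, and the median of its size without sign was 0.96 against 0.37. In bulk RNA, a change in every cell and a change in the share of cells that express a gene cannot be told apart.

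**Figure D1:**
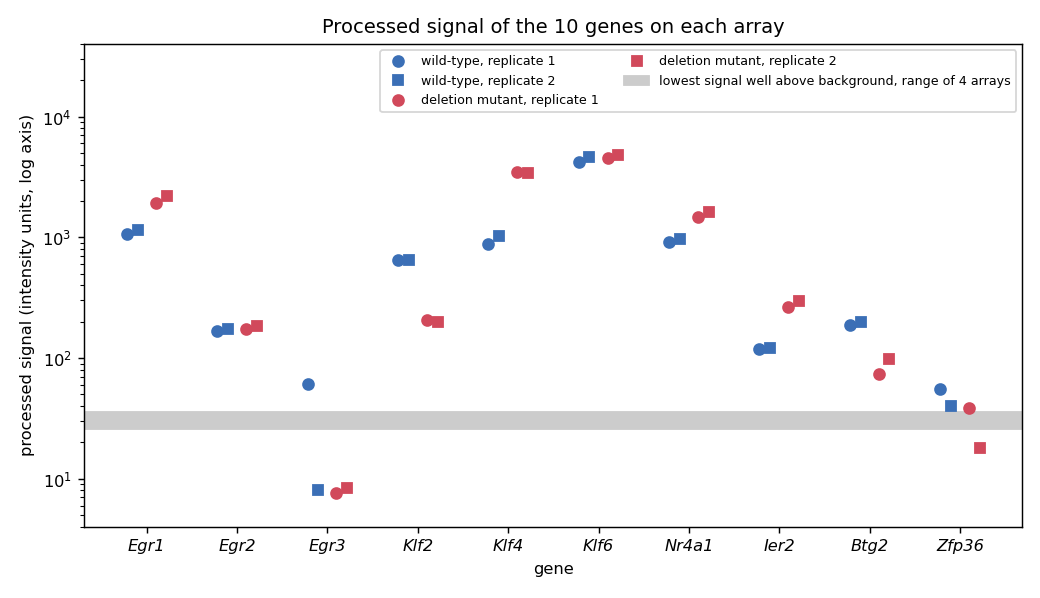
Processed signal (intensity units, log axis) of the 10 genes on each of the 4 arrays, with wild-type arrays in blue, deletion-mutant arrays in red, circles for replicate 1 and squares for replicate 2. The grey band spans the lowest signal called well above background on the 4 arrays (25.9 to 35.8), in which or below which Egr3 and Zfp36 have some of their points.

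**Figure D2:**
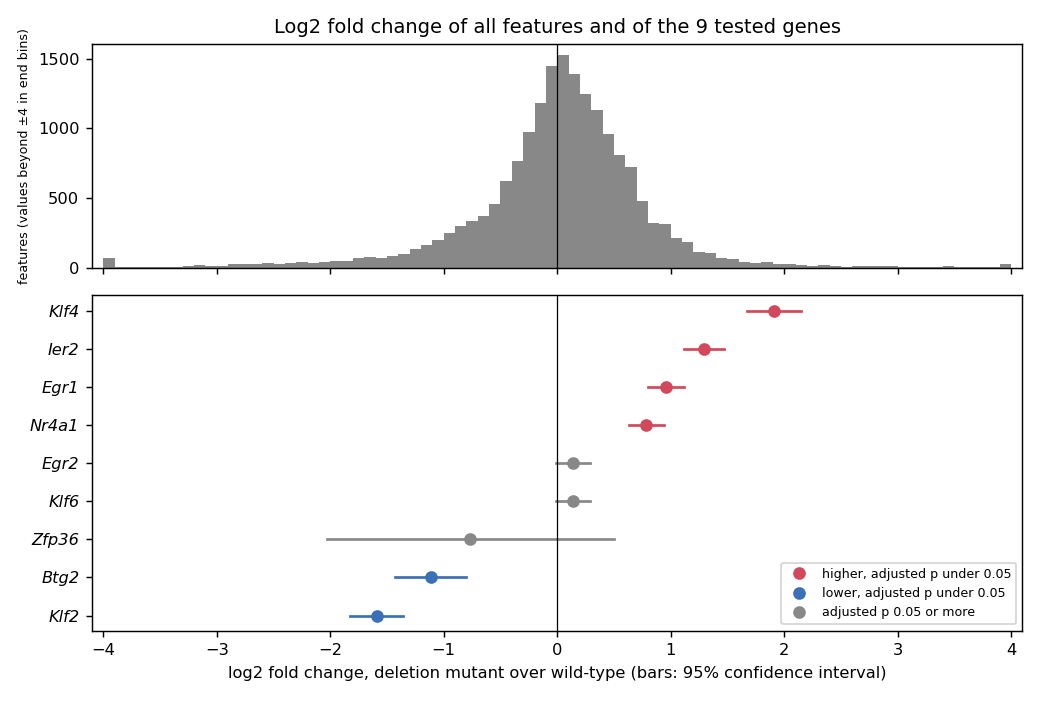
Above, the number of features per 0.1 of log2 fold change for all 18093 features, and below, the log2 fold change of the 9 tested genes with its 95% confidence interval from limma (n = 2 arrays per group). Klf4 at 1.91 and Klf2 at -1.59 lie furthest out in opposite directions, and the interval of Zfp36, from -2.03 to 0.50, is the widest.

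Egr1, a zinc finger activator that links growth factor signals to later gene expression (probe on chromosome 18, 35024395 to 35024454, mm9), had processed signals of 1070 and 1150 intensity units in wild-type arrays and 1930 and 2190 in deletion-mutant arrays. Both deletion-mutant arrays were above both wild-type arrays. After scaling to the array's 75th percentile, the log2 level averaged 1.64 ± 0.0136 (SD, n = 2) without the deletion and 2.60 ± 0.0516 with it, a 1.95-fold rise (log2 fold change 0.96 ± 0.0599 SE, 95% confidence interval 0.80 to 1.12, limma adjusted p = 0.000857). The change was higher than that of 93.3% of all features.

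Egr2, also called Krox20 and known from hindbrain and Schwann cell development (probe on chromosome 10, 67004798 to 67004857), gave 167 and 175 intensity units in wild-type and 175 and 186 in deletion-mutant arrays. Scaled to the 75th percentile, its deletion-mutant levels of -0.91 and -0.92 (log2) both lay above the wild-type levels of -1.04 and -1.07, but the log2 fold change of 0.14 ± 0.0549 SE did not pass (limma adjusted p = 0.0847, 95% confidence interval -0.01 to 0.29). This call depended on the scaling of the arrays. It passed upward under 4 of the 5 other scalings, with 0.23 (log2) and an adjusted p of 0.0292 on the spike-ins and 0.24 and 0.0227 under quantile normalization, and with 0.32 and 0.0104 under median scaling, which the authors' values repeat (0.33 and 0.0105). With the percentile taken over detected probes the value was -0.05 (adjusted p = 0.469).

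Egr3, a relative that Egr1 is known to share targets with, was at the limit of the array (probe on chromosome 14, 70479222 to 70479281). One wild-type array read 60.8 intensity units and was well above background, while the other wild-type array at 8.03 and the deletion-mutant arrays at 7.62 and 8.43 were not. The raw mean brightness of the spot was 185 on the first wild-type array and 128, 135 and 123 on the others, over local backgrounds of 46 to 52, and its pixels spread more widely there (SD 58.7) than on the others (30.8 to 35.7). With 1 of 4 arrays above background the probe was not tested. In a fit without the background filter it had a log2 fold change of -1.40 and an adjusted p of 0.459, and the wild-type replicates (SD 2.13 log2) differed more than the groups did.

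The Krüppel-like factors Klf4 and Klf2 went opposite ways. Klf4, a regulator of differentiation and of pluripotency that ERK5 and MEF2 can induce (probe on chromosome 4, 55540167 to 55540226), read 879 and 1030 intensity units in wild-type arrays and 3470 and 3390 in deletion-mutant arrays. Both deletion-mutant arrays were far above both wild-type arrays. Its scaled log2 level went from 1.42 ± 0.102 (SD, n = 2) to 3.34 ± 0.0994, a 3.77-fold rise (1.91 ± 0.0881 SE, 95% confidence interval 1.67 to 2.15, limma adjusted p = 0.000515). A log2 fold change above that of 98.7% of all features made it the largest rise among the 9 genes.

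Klf2, the factor of quiescent T cells and of endothelium under flow (probe on chromosome 8, 74845137 to 74845196), read 644 on each of the wild-type arrays and 208 and 199 on the deletion-mutant arrays. The groups did not overlap. Its level fell from 0.86 ± 0.0631 to -0.74 ± 0.12 (SD, n = 2), a 3.02-fold decrease (log2 fold change -1.59 ± 0.0856 SE, 95% confidence interval -1.83 to -1.36, limma adjusted p = 0.000647), and only 3.69% of features had a lower log2 fold change. The difference between both genes on the same array does not depend on a common scaling of that array. Klf4 minus Klf2 was 0.45 and 0.68 (log2) on the wild-type arrays and 4.06 and 4.09 on the deletion-mutant arrays, so the ratio of the Klf4 signal to the Klf2 signal was 11.4-fold larger in deletion-mutant cells. With 2 arrays a group an exact permutation test cannot go below a two-sided p of 0.333, so this difference is given without a test.

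Klf6, a widely expressed member of the family (probe on chromosome 13, 5869371 to 5869430), showed little difference. It read 4250 and 4630 intensity units in wild-type and 4510 and 4850 in deletion-mutant arrays, and these raw ranges overlapped. On the scaled log2 axis the levels were 3.63 and 3.66 against 3.79 and 3.78, with a log2 fold change of 0.14 ± 0.0553 SE that did not pass (limma adjusted p = 0.0903, 95% confidence interval -0.01 to 0.29). It passed upward under median scaling (0.32, adjusted p = 0.00945), with the authors' values (0.32, adjusted p = 0.00953), on the spike-ins (0.22, adjusted p = 0.0345) and with an intensity trend and robust variances (0.14, adjusted p = 0.0331). It was -0.10 under quantile normalization and -0.05 when the percentile was taken over detected probes.

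Nr4a1 (Nur77), an orphan nuclear receptor that is induced by growth factors and calcium signals (probe on chromosome 15, 101105071 to 101105130), read 909 and 975 in wild-type and 1470 and 1630 intensity units in deletion-mutant arrays. Both groups were tight and apart, at 1.41 ± 0.0093 and 2.19 ± 0.031 (scaled log2, SD, n = 2). The rise was 1.72-fold (log2 fold change 0.78 ± 0.0562 SE, limma adjusted p = 0.00112).

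Ier2 (probe on chromosome 8, 87186214 to 87186273), a short nuclear protein made early after serum addition, read 119 and 120 in wild-type arrays and 265 and 297 in deletion-mutant arrays. The deletion-mutant arrays were both higher. Its level went from -1.57 ± 0.0587 to -0.28 ± 0.0429 (scaled log2, SD, n = 2), a 2.45-fold rise (1.29 ± 0.0646 SE, 95% confidence interval 1.12 to 1.47, limma adjusted p = 0.000577). With normexp background correction, which adds an offset of 50 to every signal, the rise was 1.93-fold (adjusted p = 8.05e-06).

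Btg2, which restrains the cell cycle and promotes messenger RNA deadenylation and is also a p53 target (probe on chromosome 1, 135972094 to 135972153), read 189 and 199 intensity units in wild-type arrays and 74.4 and 98.2 in deletion-mutant arrays. Both deletion-mutant arrays were lower, although they differed more from each other (SD 0.207, scaled log2) than the wild-type arrays did (SD 0.011). The fall was 2.16-fold (log2 fold change -1.11 ± 0.115 SE, 95% confidence interval -1.43 to -0.80, limma adjusted p = 0.00248). With normexp background correction it was -0.63 (log2), or 1.55-fold (adjusted p = 4.7e-05).

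Zfp36 (probe on chromosome 7, 29161940 to 29161999) was dim on every array, with 55 and 40 intensity units in wild-type arrays, both well above background, and 38.7 and 18 in deletion-mutant arrays, of which the former alone was well above background. The groups overlapped in the scaled values, at -2.65 and -3.19 (log2) against -3.08 and -4.29. The log2 fold change of -0.77 ± 0.464 SE did not pass (limma adjusted p = 0.223), and its interval from -2.03 to 0.50 leaves a fall of more than 2-fold within reach. Raw spot brightness before background subtraction was 172 and 187 in wild-type and 172 and 168 in deletion-mutant arrays, over local backgrounds of 55 to 62.5. Without the first deletion-mutant array the log2 fold change was -1.37 and passed (adjusted p = 0.0149), leaving out any other single array gave -1.04 to -0.16 and did not pass, and with normexp correction it was -0.05 (adjusted p = 0.583).

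**Figure D3:**
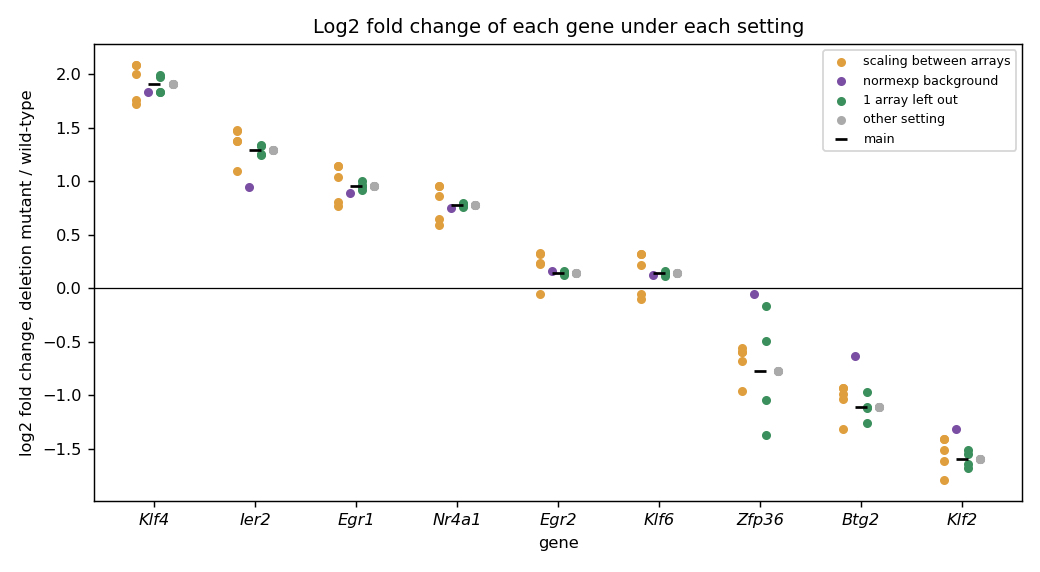
Log2 fold change of each of the 9 tested genes (deletion mutant over wild-type, n = 2 arrays per group) as reported (black bar) and under each alternative setting, grouped by colour. The 6 genes that passed keep their side of 0 in each setting, Egr2 and Klf6 cross it between scalings, and Zfp36 ranges from -1.37 to -0.05.

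The 6 calls held under each of the 16 alternative settings, in which the log2 fold change ran from 1.72 to 2.09 for Klf4, from 0.95 to 1.48 for Ier2, from 0.77 to 1.14 for Egr1 and from 0.59 to 0.96 for Nr4a1. For the genes that fell it ran from -1.79 to -1.31 for Klf2 and from -1.31 to -0.63 for Btg2. The file headers place all arrays on 1 slide, with replicate 1 of both groups in 1 row and replicate 2 of both in another, while each group fills a column of its own. Column and group therefore cannot be told apart. Within the first and the second row the log2 fold changes were 2.06 and 1.77 for Klf4, 1.22 and 1.37 for Ier2, 0.93 and 0.99 for Egr1, and 0.77 and 0.80 for Nr4a1. They were -1.55 and -1.63 for Klf2 and -1.27 and -0.96 for Btg2, so each of the 6 kept its direction in both rows. For the genes that did not pass they were 0.14 and 0.15 for Egr2, 0.16 and 0.12 for Klf6, and -0.43 and -1.10 for Zfp36.

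Further within-array differences compare the change of Egr1 with that of other members. Egr1 minus Egr2 was 2.67 and 2.72 (log2) on the wild-type arrays and 3.47 and 3.55 on the deletion-mutant arrays, a shift of 0.82. Egr1 minus Zfp36 was 4.27 and 4.84 against 5.64 and 6.93, a shift of 1.73 with an SD of 0.909 between the deletion-mutant arrays. Egr1 therefore rose relative to Egr2 within each array, by an amount beyond the spread of either pair of arrays, while the shift against Zfp36 rests on a dim probe.

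The closest relatives of the 10 genes also went both ways. Of 3 further EGR-related genes, 2 were tested: Nab1, a co-repressor that binds EGR proteins, rose 1.89-fold (log2 fold change 0.92 ± 0.0577 SE, limma adjusted p = 0.000867), and Nab2, a co-repressor that EGR1 itself induces, had -0.29 ± 0.0896 (adjusted p = 0.0526). Egr4 was not well above background on both arrays of either group. Of the 2 tested genes 50% were called, against 58.8% of all features. The number lower in this list was 0 as reported. It was 1 under quantile normalization, with the percentile over detected probes, with normexp correction and with the filter on all 4 arrays. It was also 1 with an intensity trend and robust variances and with the replicate number as a block. Of 14 other KLF genes, 8 were tested, 3 rose, 3 fell and 2 did not pass, with a median of -0.02 (log2). That is 75% called, against 58.8% of all features (34.6% higher, 24.2% lower). Klf5, a factor of proliferating epithelium and smooth muscle, rose 2.77-fold (1.47 ± 0.0719), Klf12, a repressor, fell 2.21-fold (-1.14 ± 0.0904) and Klf3, a repressor as well, fell 1.73-fold (-0.79 ± 0.066).

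Among 13 relatives of Nr4a1, Ier2, Btg2 and Zfp36, 11 were tested, of which 6 rose, 3 fell and 2 did not pass (81.8% called against the background of 58.8%, median 0.33 log2). Ier3, an early gene that acts on survival and ERK signalling, rose 5.88-fold (log2 fold change 2.56 ± 0.0619 SE), with -0.21 and -0.29 (scaled log2) in wild-type and 2.33 and 2.28 in deletion-mutant arrays. Zfp36l1, a paralog of Zfp36 with the same AU-rich targets, fell 2.37-fold (-1.24 ± 0.0684), and Tob1, an antiproliferative relative of Btg2, fell 2.25-fold (-1.17 ± 0.0965). In the BTG family Btg2 was therefore lower together with Tob1 and Tob2 (-0.55), whereas Btg3 rose 2.12-fold and Btg1 had -0.04 (adjusted p = 0.60).

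The factors that switch these genes on were also split. All 18 in the list were tested, 6 rose, 5 fell and 7 did not pass, which is 61.1% called against 58.8% of all features, with a median of 0.03 (log2). Srf had a log2 fold change of 0.14 (limma adjusted p = 0.148) and Elk1 -0.09 (adjusted p = 0.222), while Elk3, a ternary complex factor that represses until ERK phosphorylates it, rose 1.90-fold (0.93 ± 0.0975 SE, adjusted p = 0.00257). Mef2c was at least 2.01-fold lower and lay at background on both deletion-mutant arrays (adjusted p = 0.0025). Crtc1, a coactivator of CREB, fell 1.87-fold (-0.90 ± 0.0582). Mapk7, which encodes ERK5, did not pass (-0.09, adjusted p = 0.381), and its activator Map2k5 rose by 0.32 (adjusted p = 0.0165). The counts of this list were not stable, and those of all features moved with them. Scaling to the percentile of probes detected on every array gave 3 higher and 9 lower, beside 4276 and 6727 of 18093 features. Median scaling gave 9 higher and 3 lower, beside 8696 and 3141 features. Without the background filter 2 were higher and 2 lower, where 18.6% of all features passed. Leaving out the first wild-type array gave 3 and 3, the second wild-type array 3 and 2, the first deletion-mutant array 4 and 4, and the second deletion-mutant array 5 and 3.

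Other immediate-early genes outside the 10 were split as well: 6 of 14 tested rose, 5 fell and 3 did not pass, with a median of 0.22 (log2). That is 78.6% called, against 58.8% of all features (34.6% higher, 24.2% lower). Fosl1, the AP-1 subunit that follows sustained ERK activity, rose 7.49-fold (2.90 ± 0.0574 SE), Dusp6, the phosphatase of ERK, rose 5.96-fold (2.57 ± 0.0569), and Dusp5, its nuclear counterpart, was at least 4.65-fold higher and at background in wild-type cells (limma adjusted p = 0.000146, 0.000171 and 0.000177). Fos itself was not well above background on both arrays of either group and was not tested. A list that was drawn up with earlier results of these data known is no independent evidence of a direction.

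**Figure D4:**
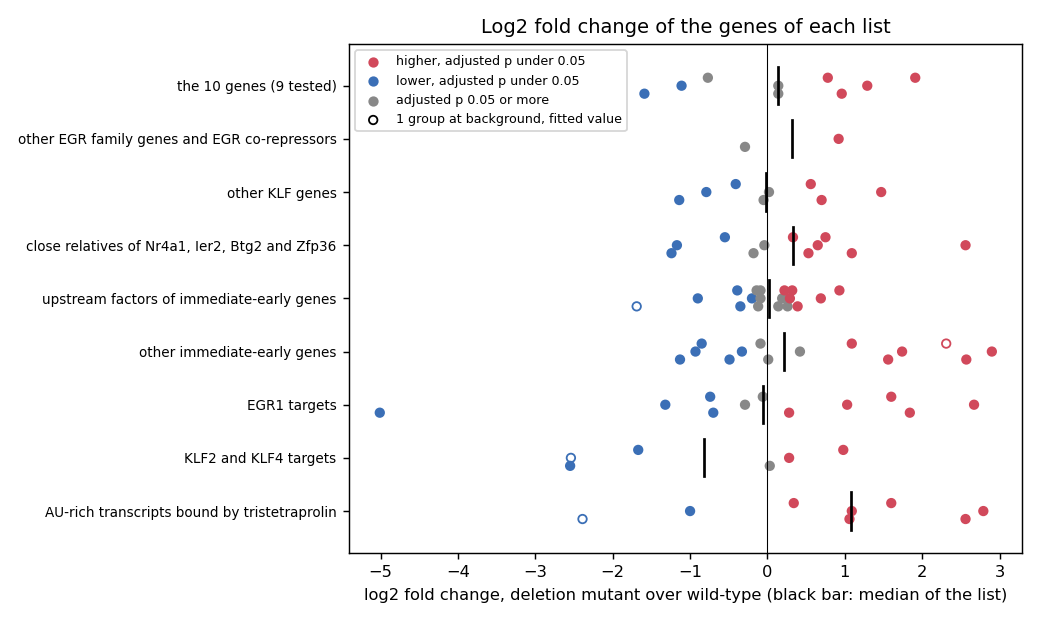
Log2 fold change (deletion mutant over wild-type) of each tested gene in the 10-gene set and in 8 related lists, coloured by direction where the adjusted p was under 0.05, with a black bar at each list's median. Genes at background in 1 group are open and show the fitted value, and every list with more than 2 tested genes has points on both sides of 0.

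Known targets of the proteins were read from 3 lists. Of 14 EGR1 targets 11 were tested, 5 rose, 4 fell and 2 did not pass, with a median of -0.06 (log2). The called share was 81.8%, against 58.8% of all features (34.6% higher, 24.2% lower). With the mean of a gene's probes in place of the brightest, 4 rose and 5 fell. Cyclin D1, Ccnd1, rose 6.35-fold (2.67 ± 0.062 SE) and Tgfb1 rose 3.58-fold (1.84 ± 0.0588), while Thbs1, the matrix protein thrombospondin 1, fell 32.2-fold (-5.01 ± 0.0938), all with limma adjusted p-values of 0.000278 or less. Of 8 targets of KLF2 and KLF4, which bind the same CACCC elements, 6 were tested, 2 rose, 3 fell and 1 did not pass, or 83.3% called. The number lower was 4 with the mean of a gene's probes and with every probe as its own feature. The number higher was 1 when any single array was left out, and also under quantile normalization, with the detected-probe percentile, with the mean of a gene's probes and without the background filter. Adm (adrenomedullin) fell 5.85-fold (-2.55 ± 0.063), S1pr1, a sphingosine phosphate receptor that depends on KLF2 in T cells, fell 3.19-fold (-1.67 ± 0.0759), and Edn1 (endothelin 1) was at least 1.40-fold lower. In the other direction, Nos3, the endothelial nitric oxide synthase, rose 1.97-fold (0.98 ± 0.094, limma adjusted p = 0.00208). Cdkn1a, a cell cycle inhibitor that stands in both target lists, rose 1.21-fold by its brightest probe (adjusted p = 0.0167), while Thbd (thrombomodulin) had 0.03 (adjusted p = 0.813). The median of this list was -0.82 by fitted values and -0.23 with Edn1 at its bound. The list does not separate targets that these factors activate from targets that they repress.

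Of 14 AU-rich transcripts that tristetraprolin is known to bind, 8 were tested and all 8 passed, 6 of them higher and 2 lower, with a median of 1.08 (log2) against 0.07 for all features. Of all features 58.8% passed, 34.6% higher and 24.2% lower. Ccl2, a chemokine, rose 6.92-fold (2.79 ± 0.0547 SE, limma adjusted p = 0.000146), with 3.30 and 3.28 (scaled log2) in wild-type and 6.07 and 6.09 in deletion-mutant arrays. Ier3, described above, and Vegfa, Ptgs2, Myc and Pim1 were the others that rose, and Vegfa, Myc and Ier3 also stand in the lists of relatives, early genes or EGR1 targets. Il6 was at least 1.29-fold lower and at background on both deletion-mutant arrays, and Cxcl1, which was above background on 1 of 2 deletion-mutant arrays, fell by 1.00 (log2, adjusted p = 0.00888). With the filter on all 4 arrays neither of the lower genes was tested, which leaves 6 higher and none lower of this list, and without the second wild-type array 1 was lower.

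Patterns over 4 arrays are shared by many genes. Among 12982 features with a gene-like name, the 3 nearest to Klf4 by the distance of values centred on their mean were Fam78b (0.0321, log2), Pkn3 (0.0643) and Rarb (0.0683), and 67 named features lay within 0.25 of it. Nearest to Klf2 were Phactr1 (0.0556), 9530082P21Rik (0.0559) and Kat6b (0.0599), and 117 lay within 0.25.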

How the data were processed

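RNA of the 4 samples was labelled with Cy3 for 1-colour arrays, per the labels' protocols. Per the file headers, Feature Extraction 10.10.1.1 gave the processed signal, an intensity already corrected for background and spatial trend, with probe coordinates on mm9. A matrix of log2 values deposited by the authors equalled this signal's log2 shifted by a constant for each array (100% of matched probes within 0.01), with array medians from 4.4453 to 4.4481. Flags of 0 or 1, which the deposited files give and have no unit of their own, marked outlier spots, which were left out, and spots well above background. From log2 signal each array's 75th percentile was subtracted. A probe had to be well above background on each array of 1 or both groups (25162 probes), and the brightest stood for its gene. Groups were compared with limma 3.58.1 in R 4.3.3 (adjusted over 18093 features, threshold 0.05, 2 residual degrees of freedom, prior degrees of freedom 2.18), which was tested on simulated data. An at-least fold sets the mean of the bright group against, per array of the dim group, the higher of the probe's signal and the lowest signal well above background. Tables and figures used Python 3.11.15, pandas 2.3.3 and matplotlib 3.10.9. Genes named were the members, Egfr, the 3 largest changes past the threshold in each of the 8 related lists, and the 3 nearest patterns of Klf4 and Klf2. Others were named after their values were seen: Nab2, Egr4, Tob2, Btg1, Btg3, Srf, Elk1, Mapk7, Map2k5, Fos, Nos3, Cdkn1a, Thbd, the rest of the AU-rich transcripts, and the cell type markers Fap, Vim, Krt8, Ptprc, Emr1, Itgam, Cd68, Cd3e, Cd79a, Cdh5, Tek, Tie1, Pecam1 and Kdr. The members and lists were chosen with earlier results of these data known. With 2 arrays per group, the number of arrays limits the precision. Whether probes lie in exons or UTRs was not analysed here.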

Additional observations from a re-analysis of the deposited data

How the results depend on the processing

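The main values were compared with 16 alternatives. Without the background filter, 6465 of 34816 features passed (3741 higher, 2724 lower) in place of 10631 (6259 higher, 4372 lower), with many more dim features tested. With the percentile taken over detected probes 6727 features were lower. Of the features that passed, 58.9% were higher as reported, 73.5% with median scaling, 65.9% with the spike-ins, 51.1% with quantile scaling and 38.9% with the detected-probe percentile, and the median of all features moved by 0.18, 0.08, -0.06 and -0.19 (log2) in that order. Among the 9 tested genes, 8 passed (6 higher, 2 lower) under median scaling, the authors' values and the spike-ins, against 6 (4 and 2) as reported, and leaving out 1 array gave 6 to 7, with 7816 to 9565 features past the threshold, and the lone array of a group was assumed to vary like the other group. The counts of the 8 lists stayed within 1.5 times in 225 of 256 comparisons. With the replicate number as a block (a replicate block, which is also the row on the slide) 9988 features passed, and none of the calls of the 9 genes changed. The labels give no pairing, and deviations of arrays with the same number had a correlation of 0.0472 over 18093 features (2 pairs of arrays). Signals near background limit Egr3 and Zfp36.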
